A study of Mus musculus with 3 samples.

Results

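A list of 10 chemokines, the small secreted proteins that guide leukocyte movement, was followed in every gated cell type of irradiated mouse lung. The genes were Ccl3, Ccl4, Ccl5, Ccl6, Ccl9, Ccl17, Ccl22, Cxcl2, Cxcl12 and Cxcl16, chosen by name from the 22954 genes in the tables and described in all 19619 cells kept. Dissociated whole lung was profiled by droplet single-cell RNA sequencing 5 months after 13 Gy to the thorax of female C57BL6/J mice, all labelled wild type (WT). The CONV library came from a lung irradiated at a conventional dose rate. The CONV AsiDNA library came from a lung given the same irradiation together with AsiDNA, a short DNA decoy that mimics a double-strand break, at 100 mg/kg on the first days and 200 mg/kg on the day of irradiation. The FLASH library was irradiated at an ultra-high dose rate, without the drug. All 3 groups were therefore irradiated and each was a single library, so no test between libraries was possible and a difference between treatments cannot be told apart from a difference between animals or preparations. Non-irradiated lungs were not analysed here.

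Chemokines bind receptors on the surface of leukocytes and set up gradients that the cells follow. The CC ligands draw mainly monocytes, T cells and dendritic cells, and the CXC ligand Cxcl2 draws neutrophils. In the lung, macrophages and dendritic cells are known sources of these ligands, and Cxcl12, a homeostatic chemokine of vessels and stroma, retains leukocytes through Cxcr4. Cxcl16 is unusual in that it is made as a membrane-bound protein that binds Cxcr6.

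The libraries held 6371, 6981 and 6267 cells in the order CONV, CONV AsiDNA and FLASH, the order kept for all values below. Their median adjusted count per cell ranged from 3450 to 3678, and the sequencing depth itself is unknown because the deposited values had been adjusted. Cells were assigned to types by marker genes, none of them a chemokine or a chemokine receptor, and 0.925 to 1.44% of cells entered no gate. In 2356, 2782 and 2431 cells at least 2 markers of a type of another lineage were above 0, and these cells of mixed lineage were kept. Without them the mean level in the leading type moved by less than the spread between libraries for 8 of the 10 members. For Ccl3 and Ccl4 no such value was taken, as the leading type then held under 20 cells in a library. Between 9 and 17 cell barcodes were shared by any pair of libraries. Levels are given as adjusted counts of a cell type per 1000000 (CPM), and detection as the percentage of cells with a value above 0 with an exact 95% interval that covers the sampling of cells only. Less RNA per cell and fewer expressing cells cannot be told apart from a summed level alone, so both measures are given.

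The name of the list, chemokines of immune cells, described 9 of its 10 members. As the members were chosen with earlier results of these data known, this is a description and not a test. Immune gates held between 84.7 and 100% of the adjusted counts of these 9 genes in each library. For Cxcl12 the immune share was 0, 0.553 and 0%, and the gates of endothelial, stromal and epithelial cells held 99.9, 99.4 and 99.9%. Cxcl12 is therefore described as a gene of the non-immune lung. B cells, which were the most numerous type and contributed little to any member, gave a measure of background. The largest share of B cells above 0 for any member in any library was 0.173%, for Ccl3 in FLASH, at a median of 2944.5 adjusted counts per B cell against 2856 in neutrophils and 4990 in the larger group of alveolar macrophages.

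**Figure D1:**
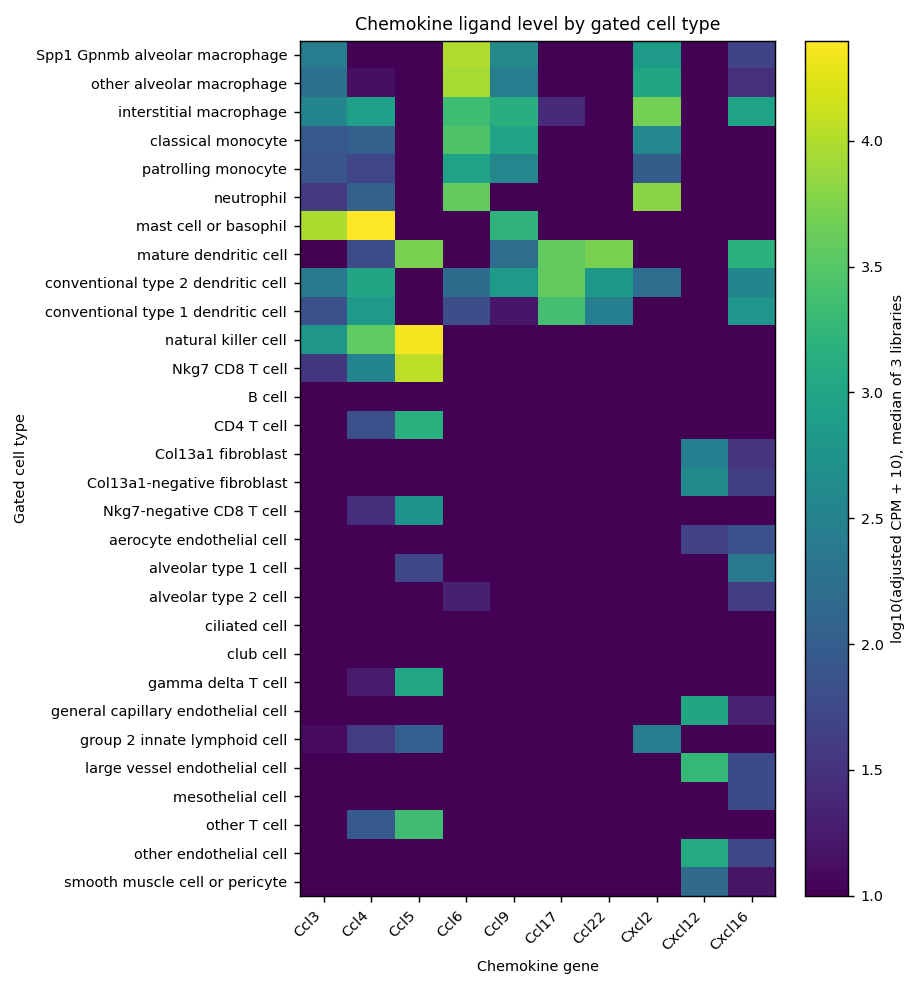
Level of each chemokine (columns) in each gated cell type (rows), as log10 of adjusted CPM + 10, the median of the 3 libraries, with brighter colours for higher levels. Ccl6 is brightest in alveolar macrophages, Ccl17 and Ccl22 in dendritic cells, Ccl5 in natural killer cells and Cxcl12 in endothelial cells and fibroblasts.

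Ccl6 and Ccl9 are CC chemokines that bind Ccr1 and attract monocytes and other myeloid cells. Their genes lie close together on the minus strand of chromosome 11 (GRCm38), Ccl6 at chr11:83587882-83593087 and Ccl9 at chr11:83572919-83578636, with 9245 bases between them. The 250 bases before each RefSeq start (GRCm38.p6, chr11:83593088-83593337 for Ccl6 and chr11:83578637-83578886 for Ccl9, minus strand) are printed to show what the pair share and where they differ. Capitals mark matches to the NF-kappa B consensus or to the AP-1 motif TGANTCA, both searched on both strands.
Ccl6: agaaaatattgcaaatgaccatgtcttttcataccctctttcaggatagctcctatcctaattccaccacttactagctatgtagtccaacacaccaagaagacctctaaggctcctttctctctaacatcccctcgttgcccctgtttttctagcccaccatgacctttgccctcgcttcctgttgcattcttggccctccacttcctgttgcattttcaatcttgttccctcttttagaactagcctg
Ccl9: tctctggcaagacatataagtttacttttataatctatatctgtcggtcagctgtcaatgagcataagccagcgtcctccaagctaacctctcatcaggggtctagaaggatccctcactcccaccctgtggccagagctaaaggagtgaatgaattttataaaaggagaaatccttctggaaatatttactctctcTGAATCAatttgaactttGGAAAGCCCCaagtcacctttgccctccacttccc
The Ccl9 window held a single match to each motif, the AP-1 match first, and the Ccl6 window held neither. The windows shared a run of 13 bases, gccctccacttcc, which began 55 bases before the Ccl6 start and 14 bases before the Ccl9 start. Of the 7 members with a promoter entry, 2 held an NF-kappa B match (Ccl9 and Cxcl2) and 1 held an AP-1 match. Among all 32851 promoter windows of the same length, 7.25% held the former and 6.75% the latter. Ccl4, Ccl5 and Cxcl16 had no entry.

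Ccl6 was a gene of alveolar macrophages, the resident phagocytes of the air spaces. In alveolar macrophages with Spp1 and Gpnmb, genes of lipid-laden and scar-associated macrophages, its level was 9111, 9793 and 10950 CPM, and 97.4, 99.5 and 100% of cells were above 0. In the other alveolar macrophages it was 9036, 7552 and 9498 CPM, and 98.4, 99.8 and 100% of cells were above 0. The ranges of these groups overlapped, and together they held 83.8, 72.2 and 76.2% of all Ccl6 counts. Neutrophils followed with 3958, 3771 and 2890 CPM, below every alveolar macrophage value. Interstitial macrophages, which lie in the tissue around vessels and airways, had 2209, 2160 and 1706 CPM, lower than neutrophils in all libraries. Classical monocytes had 2924, 2945 and 2449 CPM, on 15 cells in CONV. Patrolling monocytes, which survey the vessel wall, had 668, 918 and 1232 CPM. The same order of libraries held in the patrolling monocytes' detection, at 45.7, 70.7 and 77.6% of cells. In the gate of mast cells and basophils Ccl6 was above 0 in 24 of 78 cells of CONV AsiDNA and was listed at 0 in the 114 cells of CONV and the 26 of FLASH.

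Ccl9 was spread over more myeloid types. Interstitial macrophages had 952, 1557 and 1335 CPM, with 70, 83 and 77.6% of cells above 0, and held 45.7, 47.4 and 44.5% of its counts. Classical monocytes had 823, 1245 and 967 CPM, and conventional type 2 dendritic cells, which present antigen to CD4 T cells, had 970, 703 and 411 CPM. The mast cell and basophil gate had 84.8, 1616 and 2012 CPM, with CONV again far from the other libraries. The ranges of the leading 5 types in the fit, from interstitial macrophages to patrolling monocytes, each overlapped the next. In alveolar macrophages with Spp1 and Gpnmb its level was 260, 387 and 561 CPM, and in the others 312, 147 and 258 CPM. Neutrophils were listed at 0 for Ccl9 in all 3 libraries, in 265, 309 and 304 cells, although they were the next highest type for Ccl6 after the alveolar macrophages. Among interstitial macrophages above 0 for Ccl6, 81.7, 90.3 and 88.4% were also above 0 for Ccl9, against 70, 83 and 77.6% of all interstitial macrophages.

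Tests between cell types used the 3 libraries as replicates in limma, with the library as a block. A member is called higher or lower only where both the fit over all types and the fit of the types compared passed an adjusted p of 0.05, and the share of all genes beside such a call is by both fits too, over the genes tested in both. Between neutrophils and classical monocytes Ccl9 was lower in neutrophils (limma adjusted p = 4.1e-17), with no fold given because neutrophils were listed at 0. By the same rule 32.1% of genes were lower and 17.7% higher in this comparison. Between patrolling and classical monocytes no member was called in the limma fit over all types, with 1 (Ccl9) at an unadjusted p under 0.05, and in it 10.4% of genes were called in either direction. Without CONV, which held 15 classical monocytes, that fit called Ccl9 at -1.42 (limma adjusted p = 0.0021), with 1058 of 16793 genes called. The fit of those types alone called Ccl6, with a log2 difference of -1.59 ± 0.21 (SE, adjusted p = 0.0014), and Ccl9, with -1.33 ± 0.15 (limma adjusted p = 0.00073), and in that fit 16.1% of all genes were called. Between alveolar macrophages with Spp1 and Gpnmb and the others no member was called in the limma fit over all types, and 0 had an unadjusted p under 0.05, against 0.249% of genes called. The fit of those types alone gave Ccl9 a log2 difference of 0.73 ± 0.22 (SE, limma adjusted p = 0.044) and Cxcl2 one of -0.41 ± 0.08 (limma adjusted p = 0.0051), with 15.3% of genes called. In CONV the Ccl9 level was lower in the cells with Spp1 and Gpnmb, at 260 against 312 CPM. Without CONV the fit over all types called Ccl9, at 1.22 (limma adjusted p = 0.041), with 152 of 16779 genes called.

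Ccl3 and Ccl4 are the macrophage inflammatory proteins, which draw monocytes and lymphocytes, and Ccl3 binds Ccr1. The genes lie on opposite strands of chromosome 11, Ccl3 at chr11:83647844-83649355 on the minus strand and Ccl4 at chr11:83662584-83664683 on the plus strand, with 13228 bases between them. For both genes the highest level was in the gate of mast cells and basophils, granular cells that carry IgE receptors. Ccl3 was at 1029, 9428 and 19111 CPM there, and 10.5% (5.56 to 17.7), 61.5% (49.8 to 72.3) and 80.8% (60.6 to 93.4) of cells were above 0. Ccl4 was at 4410, 24982 and 44080 CPM, with 58.8, 92.3 and 84.6% of cells above 0. CONV was the lowest library for both genes by both measures.

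The make-up of this gate differed between the libraries in the same order. Mcpt8, a basophil protease, was above 0 in 10 of 114, 36 of 78 and 19 of 26 cells, and Tpsb2, a mast cell tryptase, in 93, 55.1 and 19.2%. The gate was therefore split by Mcpt8, a step added after the data were seen. Among cells above 0 for Mcpt8, Ccl3 was at 6416, 17776 and 23912 CPM, and 40, 94.4 and 100% of cells were above 0. Among cells at 0 for Mcpt8 it was at 445, 2181 and 4341 CPM, and 7.69, 33.3 and 28.6% of cells were above 0. Ccl4 was at 18178, 41061 and 53720 CPM in the Mcpt8 cells and at 2917, 11027 and 14423 CPM in the rest. Within each library the Mcpt8 cells were higher for both genes, and CONV was the lowest library by level on each side of the split, on 10 Mcpt8 cells in CONV and 7 cells without Mcpt8 in FLASH. The summed level of 14 genes of the dissociation response in the whole gate was 95063, 55427 and 60493 CPM, highest where Ccl3 and Ccl4 were lowest, and its part in the result was not tested.

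**Figure D2:**
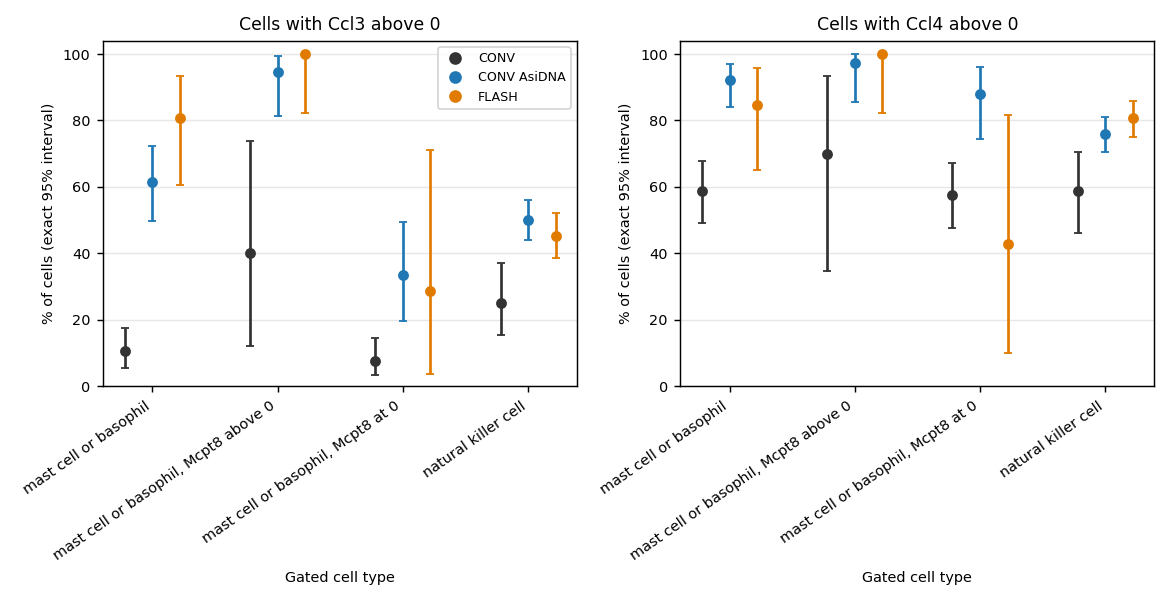
Percentage of cells above 0 for Ccl3 (left) and Ccl4 (right) with exact 95% intervals, by library, in the whole mast cell and basophil gate, in its parts with Mcpt8 at 0 or above 0, and in natural killer cells. For Ccl3 the Mcpt8 cells of CONV AsiDNA and FLASH reach 94.4 and 100%, whereas those of CONV are at 40%.

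Natural killer cells, cytotoxic lymphocytes that act without an antigen receptor, came next by mean level among the types in the fit. Their Ccl3 level was 261, 690 and 613 CPM, with 25, 50 and 45.3% of cells above 0, and in CONV interstitial macrophages were above them, at 443 CPM. Their Ccl4 level was 2516, 4051 and 3637 CPM, with 58.8, 76.1 and 80.8% of cells above 0. Cells above 0 for Ccl3 were mostly above 0 for Ccl4 too, in 70.6, 82.9 and 90.7% of cases in natural killer cells and 83.3, 100 and 100% in the mast cell and basophil gate. Interstitial macrophages had steady levels of Ccl3, at 443, 335 and 351 CPM, and of Ccl4, at 806, 810 and 570 CPM. Type 2 dendritic cells had 252, 271 and 85 CPM of Ccl3 and 1984, 970 and 764 CPM of Ccl4. Plasmacytoid dendritic cells, which make type I interferon, had 883, 4245 and 1202 CPM of Ccl4, on 4, 29 and 54 cells.

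Against CD8 T cells with Nkg7, a cytotoxic granule gene, natural killer cells were higher for Ccl3, by a log2 difference of 4.03 ± 0.58 (SE, limma adjusted p = 1.9e-07). The CD8 cells were at 5.45, 39.3 and 25.5 CPM. Ccl4 was higher as well, by 3.39 ± 0.74 (limma adjusted p = 0.00059), against 485, 182 and 328 CPM in the CD8 cells. By both fits 13.8% of genes were higher in this comparison. Of the 14 dissociation response genes, 2 were higher in natural killer cells by both fits (Jund and Dusp1) and 0 lower, and the list summed to 5827, 5159 and 4667 CPM there against 3102, 2356 and 2488 CPM in the CD8 cells. Their part in this result was not tested. Without the CONV AsiDNA library the Ccl4 difference was 2.89 with a limma adjusted p of 0.109. With a prior count of 1 it was 3.43 with a limma adjusted p of 0.0990.

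Ccl5, which recruits T cells and eosinophils and binds Ccr1 and Ccr3, was a gene of cytotoxic lymphocytes. It lies at chr11:83525778-83530518 on the minus strand. Natural killer cells had 20894, 24313 and 22227 CPM, with 98.5, 98.9 and 99.1% of cells above 0. CD8 T cells with Nkg7 had 8834, 13265 and 11571 CPM, with 61.3, 67.9 and 56.1% above 0. No library of the CD8 cells reached the natural killer values, and the log2 difference of 1.02 was called by the fit of those types alone (SE 0.11, limma adjusted p = 6.2e-05, 21.9% of genes called higher) and not by the fit over all types (SE 0.80, limma adjusted p = 0.65). The remaining T cell groups were lower, with 1636, 2309 and 2277 CPM in T cells outside the CD4, CD8 and gamma delta gates, 1404, 2284 and 1198 CPM in CD4 T cells and 739, 1078 and 2029 CPM in gamma delta T cells, and their ranges overlapped. Of the CD8 cells above 0 for Ccl4, 98.5, 96.3 and 98.6% were above 0 for Ccl5.

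The third highest type for Ccl5 was the mature dendritic cell, a migratory dendritic cell with high Ccr7. Its Ccl5 level was 5183, 8106 and 5132 CPM, and 11 of 22, 44 of 59 and 6 of 23 cells were above 0. Type 1 dendritic cells were listed at 0 in all libraries, and of the type 2 dendritic cells only 1 of 67 cells in CONV was above 0.

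Ccl17 and Ccl22 are the ligands of Ccr4, through which type 2 helper and regulatory T cells are drawn to dendritic cells. Both lie on the plus strand of chromosome 8, Ccl17 at chr8:94810453-94812036 and Ccl22 at chr8:94745590-94751699, with 58753 bases between them. Ccl17 was shared by mature, type 1 and type 2 dendritic cells, whereas plasmacytoid dendritic cells were listed at 0 in every library, on 4, 29 and 54 cells. In CONV interstitial macrophages held 547 of 3206 Ccl17 counts, in 14 of 453 cells, against 27 and 0 counts in CONV AsiDNA and FLASH. The mature dendritic cells of CONV held 291. Mature dendritic cells had 3136, 4455 and 3788 CPM, type 2 dendritic cells had 3797, 2719 and 3943 CPM, and type 1 dendritic cells, which cross-present antigen to CD8 T cells, had 2910, 2079 and 2483 CPM. These ranges overlapped between neighbours in the order, and 50.5 to 73.9% of the cells of each type and library were above 0. The log2 difference between mature and type 2 dendritic cells was 0.13 ± 0.42 (SE, limma adjusted p = 1).

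Ccl22 had its highest level in the mature cells, which held 290 of 661, 1300 of 2048 and 592 of 1473 of its adjusted counts. Type 2 dendritic cells held 141, 564 and 542 of them. The mature cells had 3125, 5148 and 6077 CPM, with 77.3% (54.6 to 92.2), 83.1% (71 to 91.6) and 100% (85.2 to 100) of cells above 0. Type 2 dendritic cells had 480, 633 and 853 CPM, and type 1 dendritic cells had 445, 271 and 284 CPM. The 3 types did not overlap, and Ccl22 was higher in mature than in type 2 dendritic cells by a log2 difference of 2.83 ± 0.23 (SE, limma adjusted p = 5.5e-16). Of the mature cells above 0 for Ccl17, 92.3, 94.3 and 100% were above 0 for Ccl22. Of the type 2 cells above 0 for Ccl17, 46.2, 53.3 and 57.3% were.

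Cxcl16 (chr11:70453983-70459984, minus strand) was, among the types in the fit, also highest in mature dendritic cells. Its level there was 1465, 1655 and 1427 CPM, and 86.4, 98.3 and 91.3% of cells were above 0. Interstitial macrophages followed with 865, 912 and 973 CPM, type 1 dendritic cells with 685, 552 and 581 CPM, and type 2 dendritic cells with 313, 414 and 357 CPM. Each of these 4 ranges lay below the one before it. Interstitial macrophages were the more numerous and held 58.5, 50.3 and 54% of its counts. Non-immune gates held 5.83, 6.55 and 11.2% of the Cxcl16 counts, against at most 1.13% for the 8 other members led by immune cells. Outside the immune gates the level was 252, 221 and 175 CPM in alveolar type 1 cells, the flat cells of gas exchange, and 334, 47.5 and 23 CPM in mesothelial cells, which line the lung surface. As 29.9% of the alveolar type 1 gate had Ptprc, the pan-leukocyte gene, above 0, the level was taken again in its cells at 0 for Ptprc, where it was 239, 250 and 188 CPM.

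Of the 10 members, mature dendritic cells were higher than type 2 dendritic cells for 3 and lower for 5. Cxcl12 was not tested in the fit of both types alone. By both fits 10.5% of genes were higher and 23.7% lower. Beside Ccl22, Ccl5 was higher (limma adjusted p = 1.2e-14), as was Cxcl16, by a log2 difference of 2.04 ± 0.48 (SE, limma adjusted p = 0.00077). The 5 lower members were Ccl3, Ccl4, Ccl6, Ccl9 and Cxcl2. Of 14 dissociation response genes, 9 were lower in mature cells by both fits, and the list summed to 4192, 6522 and 6662 CPM there against 11443, 16728 and 16414 CPM in type 2 cells. Of the type 2 cells 10.4, 18.8 and 8.11% held at least 2 of 12 alveolar macrophage markers, and of the mature cells 0% in every library. Their part in the result was not tested. In type 2 cells with at most 1 such marker Ccl4 was at 2247, 990 and 742 CPM, Ccl9 at 606, 499 and 401 CPM and Ccl6 at 398, 44.6 and 10.3 CPM. Ccl6 and Cxcl2 were listed at 0 in every mature dendritic cell, so no fold is given. Ccl4 fell by 4.50 ± 0.74 on the log2 scale (limma adjusted p = 1.7e-06), from the type 2 levels above to 0, 202 and 51.3 CPM. Ccl9 was lower by a log2 difference of -2.22 ± 0.54 (limma adjusted p = 0.0011), at 162, 154 and 92.4 CPM in mature cells. Without the CONV AsiDNA library Ccl9 was at -2.28 (limma adjusted p = 0.0634) and Cxcl16 at 2.08 (limma adjusted p = 0.0699). Without CONV the limma adjusted p was 0.0851 for Ccl6. When clusters replaced the marker gates, the fit over all types no longer called Ccl6, Ccl9 and Cxcl2. Their log2 differences were then smaller, at -1.02, -1.18 and -0.53 (limma adjusted p = 0.852, 0.152 and 1).

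**Figure D3:**
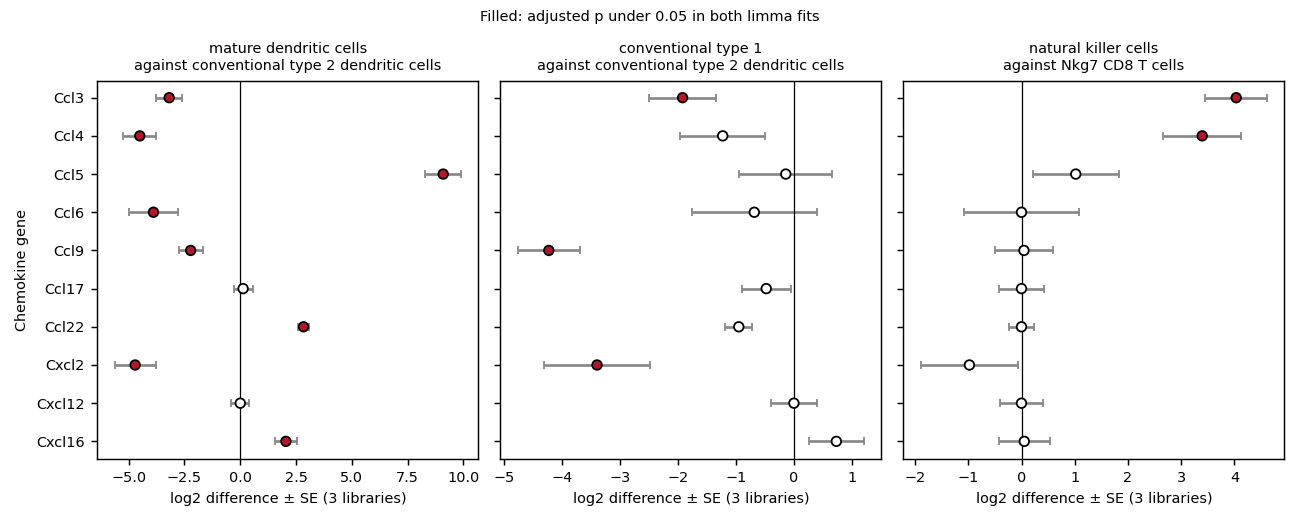
Log2 difference of each member with its standard error (3 libraries) in 3 comparisons of cell types, with filled points for members called by both limma fits. Mature against type 2 dendritic cells shows Ccl5, Ccl22 and Cxcl16 to the right of 0 and 5 filled members to the left, whereas natural killer against CD8 T cells shows Ccl3 and Ccl4 filled on the right.

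Type 1 dendritic cells were lower than type 2 dendritic cells for Ccl3, Ccl9 and Cxcl2, where 5.38% of genes were lower by both fits. Of the 14 dissociation response genes 1 was lower by both fits (Ier3). The median log2 difference over that list was -0.69, and its part in this result was not tested. The log2 differences were -1.92 ± 0.58 for Ccl3 (SE, limma adjusted p = 0.031), -4.23 ± 0.54 for Ccl9 (limma adjusted p = 9.4e-09) and -3.40 ± 0.92 for Cxcl2 (limma adjusted p = 0.011). Ccl22 passed in the fit over all types and missed in the fit of both types alone (limma adjusted p = 0.058). Conversely, Ccl17 at -0.48 and Cxcl16 at 0.73 passed only in the fit of both types alone (limma adjusted p = 0.012 and 0.023). Without cells of mixed lineage the fit over all types also called Ccl6, at -1.67 (limma adjusted p = 0.022), and no longer called Ccl22 (limma adjusted p = 0.09). Without the CONV AsiDNA library or without FLASH, Ccl9 was the only member still called. Cxcl2 was then at -3.05 and -3.32 (limma adjusted p = 0.282 and 0.154) and Ccl3 at -1.88 and -1.60 (limma adjusted p = 0.379 and 0.243). With a prior count of 1 Ccl3 missed at -2.34 (limma adjusted p = 0.223), and with clusters Cxcl2 missed at -2.34 (limma adjusted p = 0.206). In CONV, 16.7% of type 1 dendritic cells held at least 2 of 12 alveolar macrophage markers, against 2.05% in CONV AsiDNA and 0% in FLASH. The summed level of those markers was 2143, 374 and 260 CPM, against 629, 680 and 450 CPM in type 2 dendritic cells, where the share of such cells was higher than in type 1 cells in CONV AsiDNA and FLASH. In type 1 dendritic cells Ccl6 was at 1230, 53.5 and 0 CPM, Ccl9 at 186, 6.11 and 4.09 CPM and Cxcl2 at 143, 0 and 0 CPM. Each was highest in CONV, and the part of the macrophage markers was not tested. In type 1 dendritic cells with at most 1 such marker Ccl6 and Cxcl2 were listed at 0 in all libraries, and Ccl9 was at 9.44, 6.24 and 4.09 CPM. In type 2 cells held to the same limit Cxcl2 was at 432, 130 and 115 CPM and Ccl3 at 251, 247 and 87.8 CPM. Ccl4 was at 1722, 654 and 92.1 CPM in all type 1 dendritic cells and at 2100, 664 and 92.1 CPM in those with at most 1 marker.

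Cxcl2 (chr5:90903871-90905938, plus strand), the mouse ligand of Cxcr2 that calls neutrophils into tissue, had its highest level in neutrophils themselves. The 250 bases before its RefSeq start, chr5:90903649-90903898 on the plus strand (GRCm38.p6), are printed for their NF-kappa B match. Among the 7 members with a promoter entry, Ccl9 was the only other with such a match.
Cxcl2: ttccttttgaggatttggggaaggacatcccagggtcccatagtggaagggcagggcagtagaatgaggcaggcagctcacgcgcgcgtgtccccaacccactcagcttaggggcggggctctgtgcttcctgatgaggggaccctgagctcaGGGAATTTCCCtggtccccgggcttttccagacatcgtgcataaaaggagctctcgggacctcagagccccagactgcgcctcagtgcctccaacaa
The capitals cover 2 overlapping matches, which begin 97 and 96 bases before the start. The level in neutrophils was 14528, 5967 and 6283 CPM. In those libraries 95.8% (92.7 to 97.9), 81.2% (76.4 to 85.4) and 75.7% (70.4 to 80.4) of neutrophils were above 0. CONV was the highest of the 3, with a median of 39 counts in the cells above 0 against 15 and 18.5. Against classical monocytes neutrophils were higher by a log2 difference of 5.48 ± 1.04 (SE, limma adjusted p = 1.6e-05), the monocytes being at 1559, 0 and 381 CPM. With the CONV AsiDNA monocytes at 0, the size of this difference depends on the prior count, and CONV held 15 classical monocytes. Ccl6, at a log2 difference of 0.34, was called by the fit of those types alone (limma adjusted p = 0.035) and not by the fit over all types. Of the 14 dissociation response genes, 7 were higher and 1 lower in neutrophils by both fits, with a median log2 difference of 1.45 over the list, and their part in this result was not tested.

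CONV, the highest library in neutrophils, was the lowest in macrophages. CONV was also highest for Cxcl2 in type 2 dendritic cells, at 885, 161 and 107 CPM, and in patrolling monocytes, at 448, 28.7 and 90.7 CPM. Group 2 innate lymphoid cells had 732, 269 and 0 CPM, and all T cells together had 58.1, 0 and 0 CPM. The mast cell and basophil gate had 0, 311 and 0 CPM. Interstitial macrophages had 3375, 4909 and 5428 CPM of Cxcl2, with 60.5, 74 and 77.6% of cells above 0. Of these cells 19.2, 10.2 and 5.9% held at least 2 of 12 alveolar macrophage markers, most in CONV, and their part was not tested. Alveolar macrophages of both kinds together had 279, 931 and 1052 CPM, with 17.8% (15.5 to 20.3), 46.3% (42.5 to 50.2) and 47.9% (43.4 to 52.5) of cells above 0. Within the alveolar macrophages the pattern held for those with Spp1 and Gpnmb, at 264, 698 and 836 CPM, and for the others, at 300.5, 1026 and 1188 CPM. Neutrophils held 54, 32 and 37.3% of all Cxcl2 counts and interstitial macrophages 31.6, 46.9 and 44.6%. The dissociation genes summed to 27000, 19101 and 20810 CPM in neutrophils and to 18490, 22756 and 25732 CPM in interstitial macrophages, with CONV highest in the former and lowest in the latter, as for Cxcl2. In the alveolar macrophages without Spp1 and Gpnmb they summed to 4164, 5502 and 4573 CPM. Their part in the result was not tested. In interstitial macrophages above 0 for Cxcl2, 49.6, 41.3 and 41.6% were above 0 for Ccl3, against 39.1, 37.1 and 37.9% of all these cells.

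**Figure D4:**
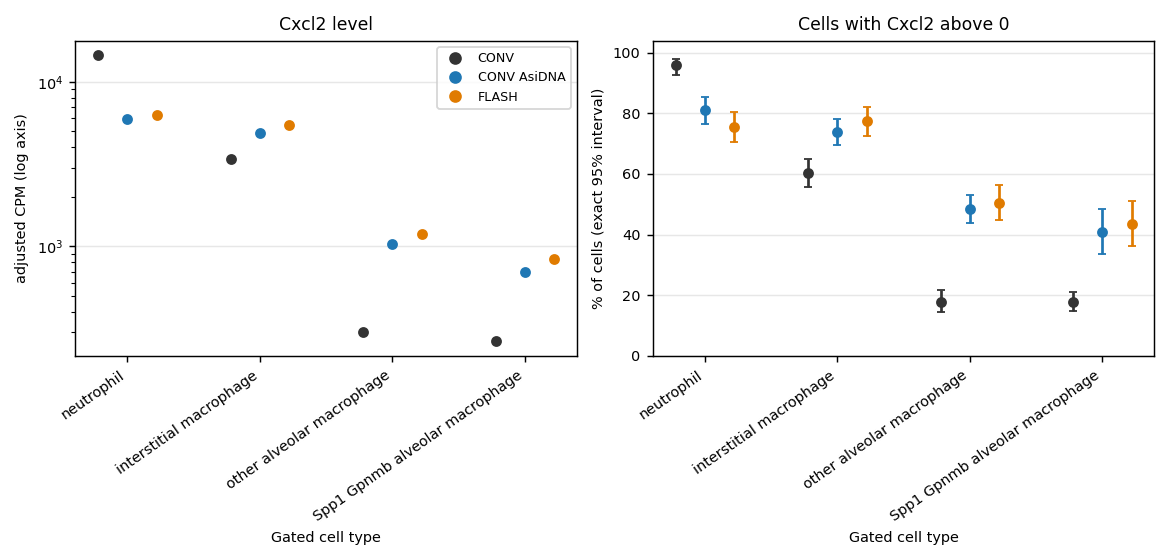
Cxcl2 in neutrophils, interstitial macrophages and both groups of alveolar macrophages, as adjusted CPM on a log axis (left) and as the percentage of cells above 0 with exact 95% intervals (right), 1 point per library. CONV is the highest point in neutrophils, at 14528 CPM, and the lowest in all 3 macrophage groups.

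Alveolar macrophages also differed between libraries in Ccl3 and Cxcl16. Of 6 members compared there, Ccl3 and Cxcl2 were past 2-fold lower in CONV than in each other library, and Cxcl16 was past 2-fold higher. The median log2 ratio of all genes of CONV in these cells was -0.18 to the drug-treated library and -0.15 to FLASH. Over all genes 3% were past 2-fold lower and 1.94% higher in CONV than in CONV AsiDNA, and 3.44% and 2.3% against FLASH. With the median gene ratio as the scaling, Ccl3 in CONV over CONV AsiDNA had a log2 ratio of -0.96 and was no longer past 2-fold. Cells with Spp1 and Gpnmb numbered 573 of 1005, 186 of 667 and 179 of 482 alveolar macrophages. The same Ccl3 ratio was -1.94 in those cells and -0.69 in the others. Ccl3 was at 80.2, 200 and 258 CPM, with 15.3, 23.8 and 35.7% of cells above 0. Cxcl16 was at 96.6, 21.9 and 26.1 CPM, with 26.5% (23.8 to 29.3), 4.95% (3.43 to 6.88) and 9.75% (7.25 to 12.8) of cells above 0. Between CONV AsiDNA and FLASH none of the 6 members was past 2-fold, against 0.475% of genes higher and 0.485% lower. Over whole libraries, Ccl3, Ccl4, Ccl5 and Ccl22 were past 2-fold lower in CONV than in CONV AsiDNA, where 0.395% of genes were (Ccl5 was just under 2-fold, at a log2 ratio of -0.997, with the median gene ratio as the scaling), and Cxcl12 was past 2-fold higher in CONV than in FLASH, where 0.576% of genes were. These whole-library values also depend on the number of cells of each type, whose part was not tested. Natural killer cells numbered 68, 280 and 214 and mature dendritic cells 22, 59 and 23. The mast cell and basophil gate, highest for Ccl3 and Ccl4, held 114, 78 and 26 cells, most in CONV, where both were lowest.

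Cxcl12 (chr6:117168535-117181367, plus strand) was highest in endothelium. Large vessel endothelial cells had 2329, 1847 and 746 CPM, with 77.9% (69.5 to 84.9), 61.4% (52.8 to 69.5) and 52.3% (44 to 60.5) of cells above 0. General capillary cells, the progenitors of the lung capillary bed, had 2287, 978 and 416 CPM, and the remaining endothelial cells had 2863, 1170 and 517 CPM. In each of these groups the order was CONV, then CONV AsiDNA, then FLASH, and their ranges overlapped with each other. Aerocytes, the large capillary cells of gas exchange, were far lower at 259, 20.2 and 36 CPM. Aerocytes were lower than general capillary cells by a log2 difference of -3.78 ± 0.40 (SE, limma adjusted p = 1.7e-11), where 7.72% of genes were lower by both fits. Of the 14 dissociation response genes, 6 were lower in aerocytes by both fits, with a median log2 difference of -0.90 over the list, and their part in this result was not tested.

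Endothelial cells together held 94.6, 83.6 and 77.6% of Cxcl12 counts. Fibroblasts came next, with 524, 286 and 166 CPM in those with Col13a1 and 402, 832 and 410 CPM in those without it. Their log2 difference was 0.80 ± 0.40 (SE, limma adjusted p = 0.28), where 7.64% of genes were called in either direction by the fit over all types. Without the CONV library it was 1.38 with a limma adjusted p of 0.0056. Smooth muscle cells and pericytes had 142, 173 and 130 CPM, and mesothelial cells were listed at 0. The dissociation genes summed to 18591, 9572 and 11221 CPM in large vessel cells and to 19468, 5156 and 5565 CPM in general capillary cells, highest in CONV as Cxcl12 was. Their part in the difference between libraries was not tested.

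**Figure D5:**
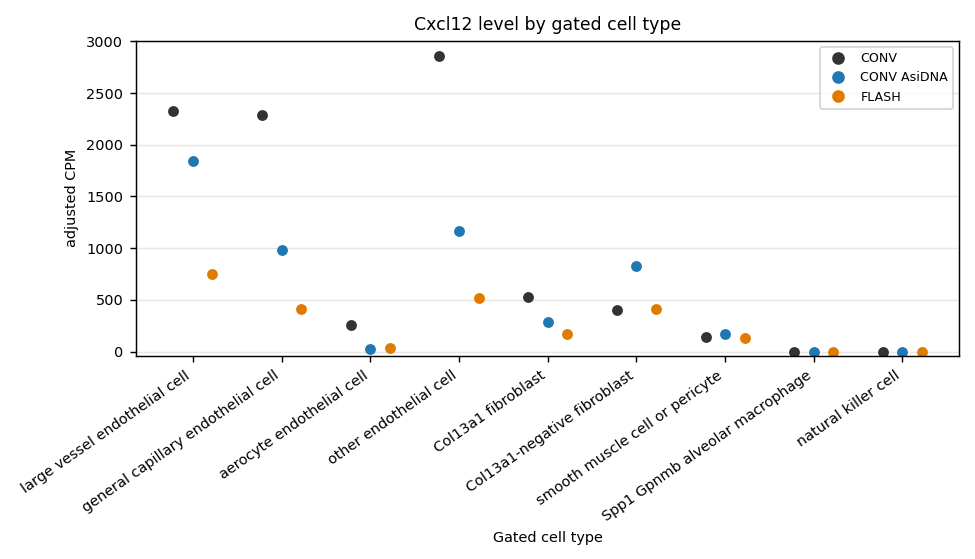
Cxcl12 as adjusted CPM in endothelial, fibroblast and mural cell types, 1 point per library. Alveolar macrophages with Spp1 and Gpnmb and natural killer cells are drawn beside them. CONV is the highest point in large vessel, general capillary and other endothelial cells, and aerocytes stay at or below 259 CPM in every library.

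The receptors of these ligands were read in the same cells. Ccr1, the receptor of Ccl3, Ccl6 and Ccl9, was highest in neutrophils, at 1536, 1446 and 1524 CPM. Ccr4, the receptor of Ccl17 and Ccl22, was on average highest in CD4 T cells, at 37.7, 55.7 and 73.6 CPM. Ccr3 stayed at or below 27.1 CPM in every type with at least 20 cells in a library. Cxcr2, the receptor of Cxcl2, was at 1203, 2417 and 2546 CPM in neutrophils, so the library with the most neutrophil Cxcl2 had the least Cxcr2. Cxcr4, the receptor of Cxcl12, was highest in neutrophils, at 886, 669 and 701 CPM, and in patrolling monocytes, at 858, 655 and 610 CPM. Ackr3, which binds and removes Cxcl12, was highest in large vessel endothelium, at 479, 746 and 749 CPM, with CONV lowest where Cxcl12 was highest. Cxcr6, the receptor of Cxcl16, was highest in gamma delta T cells, at 843, 887 and 862 CPM, followed by group 2 innate lymphoid cells, at 276, 626 and 678 CPM.

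Of the 26 other chemokine ligands in the tables, the 5 with the most counts were Cxcl15, Pf4, Ccl8, Ccl2 and Ccl7. Cxcl15, the lung epithelial chemokine, was at 7545, 12957 and 12907 CPM in alveolar type 2 cells. Pf4, Ccl8 and Ccl7 were led by interstitial macrophages in at least 2 of the libraries, with Ccl8, which draws eosinophils and monocytes, at 1962, 2397 and 1974 CPM there. Ccl2, the main ligand of Ccr2, was at 898, 1308 and 1256 CPM in interstitial macrophages and at 2544, 5733 and 1148 CPM in the mast cell and basophil gate. Most of these 26 ligands and of 22 receptors were too low for the fit of the types compared, so calls by both fits rest on few of them. Between mature and type 2 dendritic cells 5 ligands and 7 receptors were tested by both fits. Of the ligands 1 was higher in mature cells (Cx3cl1) and 3 were lower (Cxcl9, Ccl2, Ccl7), and of the receptors 1 was higher (Ccr7) and 5 were lower, beside the 10.5 and 23.7% of genes given above. Between natural killer and CD8 T cells 4 ligands and 9 receptors were tested by both. Natural killer cells were higher for 2 ligands, Xcl1 and Ccl27a, the latter a gene with near-identical copies, and lower for 0. Of the receptors 2 were higher and 5 lower (Cxcr3, Cxcr5, Cxcr6, Ccr7, Ccr9), beside 13.8 and 5.44% of genes. Between neutrophils and classical monocytes 4 ligands and 7 receptors were tested by both. Neutrophils were higher for the Cxcr2 ligand Cxcl3 and for 4 receptors, Cxcr1, Cxcr2, Cxcr4 and Ccr1, and lower for Ccl2 and for 3 receptors, beside 17.7 and 32.1% of genes.

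Across 87 sums of a cell type in a library, from 29 types, the members' profiles were compared with those of 17434 genes by Pearson correlation of log2 levels. These are descriptions only, since the points share libraries. Ccl17 and Ccl22 were each other's nearest gene, at r = 0.97. After each other, Tnni2 (0.93) and Phf11a (0.91) followed for Ccl17, and Strip2 (0.95) and Phf11a (0.93) for Ccl22. The genes nearest to Ccl3 were Plek (0.81), Ccl4 (0.80) and Ccl9 (0.78), and those nearest to Ccl4 were Ccl3 (0.80), Lat2 (0.78) and Nr4a2 (0.73). The profile of Ccl5 was nearest to Fasl (0.84), Il2rb (0.83) and Ctsw (0.82). That of Ccl6 was nearest to Fcgr3 (0.94), Tlr2 (0.93) and Pilra (0.92), and that of Cxcl2 to Fcgr3 (0.89), C5ar1 (0.88) and Clec4a2 (0.87). Ccl9 was nearest to Fcgr2b (0.84), Rassf4 (0.84) and Lilrb4a (0.82), Cxcl16 to Xlr (0.77), Arhgap22 (0.76) and Batf3 (0.76), and Cxcl12 to Akap12 (0.95), Dchs1 (0.95) and Prex2 (0.94). With the other 9 members Cxcl12 had r between -0.37 and -0.01.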

How the data were processed

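The authors sequenced droplet libraries of dissociated lung. The submitters' processing notes name Cell Ranger 6.0.0 and the build mm10. The deposited tables hold natural log values, ln(1 + a whole number), of counts that had been adjusted per cell; how they were filtered and adjusted is not stated in those sources, so count models, floors and depths could not be used. A further 12 per-sample columns in 4 tables were not used, among them the authors' own comparisons (fold changes and p-values).

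Values were returned to whole numbers, cells with at least 200 genes and at most 20% mitochondrial counts were kept, and a cell entered the type with the largest share of its markers above 0, with at least 3 markers above 0. No doublet caller was run. Counts were summed per type and library and given per 1000000. Types with at least 20 cells in each library (29 types) entered limma 3.58.1 (R 4.3.3) on log2(CPM + 10), with the trend, type and library as terms, and Benjamini-Hochberg adjustment over all genes with a sum of at least 20, so fold changes understate low genes. Both monocyte comparisons used at least 10 cells, a choice made after the data were seen. On simulated data for type 1 against type 2 dendritic cells, with 200 genes changed 4-fold, the fit over all 29 types recovered 90% of them over 17590 genes, but 33.3% of its calls were false. A fit of the 2 types alone recovered 89.5% over 6679 genes with 2.19% false. A member or listed gene is therefore called higher or lower only where both fits called it. With 3 libraries from 3 treatments as replicates, p-values for a type contrast hold across these libraries only.

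The members and lists were chosen with earlier results of these data known. The genes named are the 10 members, the 3 genes nearest each by correlation, receptors that bind a member (not all are reported here), and the 5 other ligands with the most counts. Other genes of the ligand and receptor lists were named where a count of 5 or fewer fell on them, after their values were seen. Alternatives covered the prior count, the number of markers, clusters, the filter, the scaling, the block and each library left out. The analysis used Python 3.11.15, numpy 2.4.6, scipy 1.17.1, pandas 2.3.3 and scanpy 1.11.5. Gene positions are from GENCODE (GRCm38) and promoters from RefSeq (GRCm38.p6).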

Additional observations from a re-analysis of the deposited data

Results flagged for a closer look

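Among types with no library at 0, a set of 4 ligands moved past 2-fold in opposite directions in at least 2 cell types. Each move was between CONV and both other libraries. These differences between types were not tested. For each of these 4 ligands 1 type in each direction is given, and others are left out, such as endothelial cells for Cxcl16. Ccl6 also moved in opposite directions where a library was at 0. It was higher in CONV in type 2 dendritic cells, by 2.05 and 4.34, and lower in alveolar type 2 cells, at 0, 10.1 and 47.8 CPM. Over all non-immune gates Ccl6 was above 0 in 5 of 1314, 2 of 1680 and 5 of 1690 cells. In the alveolar type 2 gate 12 alveolar macrophage markers summed to 0, 20.9 and 136 CPM, in the same order of libraries. Their part was not tested. Cxcl2 was higher in CONV in neutrophils, by log2 ratios of 1.28 over CONV AsiDNA and 1.21 over FLASH, and lower in alveolar macrophages without Spp1 and Gpnmb, by -1.74 and -1.95. Cxcl16 was higher in CONV in those alveolar macrophages, by 1.90 and 1.88, and lower in alveolar type 2 cells, by -1.36 and -1.53, where it reached at most 33.1 CPM. Ccl4 was higher in CONV in type 1 dendritic cells, by 1.38 and 4.08, and lower in the mast cell and basophil gate, by -2.50 and -3.32. Ccl9 was higher in CONV in type 1 dendritic cells, by 3.60 and 3.80, and lower in the mast cell and basophil gate, by -4.10 and -4.41. In type 1 dendritic cells with at most 1 alveolar macrophage marker, Ccl9 was at 9.44, 6.24 and 4.09 CPM in CONV, CONV AsiDNA and FLASH. The share of cells with Mcpt8 above 0 in the mast cell and basophil gate was 8.77, 46.2 and 73.1%.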

How the results depend on the processing

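Of 794 recomputed log2 differences of members between cell types, 755 stayed called or stayed uncalled, 27 lost the call and 12 gained it. Of those called in either setting 0 reversed direction, and changes of direction without a call were not counted. Of 177 library ratios 173 stayed on their side of 2-fold. With the median gene ratio Ccl3 in alveolar macrophages (-0.96) and Ccl5 over all cells (-0.997), both CONV over CONV AsiDNA, fell short of it, and with a prior count of 1 Ccl4 in alveolar macrophages (1.27) and Ccl22 over all cells (-1.16), both CONV over FLASH, passed it. Counts of members called in this section are from the fit over all types, unless the fit of the types compared is named. Calls by both fits leave out Ccl22 for type 1 dendritic cells and Cxcl16 for aerocytes. Without the library as a replicate block the counts of members called were the main ones, 8 for mature and 4 for type 1 against type 2 dendritic cells and 2 for natural killer cells, for neutrophils and for aerocytes. No count of members moved there. With only the types compared in the fit, 2 members were called between the alveolar macrophage groups and 2 between monocytes, each against 0, 5 against 4 for type 1 dendritic cells, 3 against 2 for natural killer cells and for neutrophils, and 1 of 2 between aerocytes and general capillary cells, where Cxcl16 was lost. Cxcl16 was lost there too, leaving 1, with 4 markers, with clusters, without the filter and with the median gene ratio. With clusters, 5 members of 8 were called between mature and type 2 dendritic cells and 2 of 4 between type 1 and type 2. A prior count of 1 left 2 of those 4, and 1 of 2 between natural killer and CD8 T cells, and put 2 members in place of 1 past 2-fold over all cells between CONV and FLASH. With that prior 630 of 17638 genes were called between type 1 and type 2 dendritic cells. With a library left out, the count called ranged from 1 to 4 for type 1 dendritic cells, 6 to 8 for mature dendritic cells, 1 to 2 for natural killer cells and for aerocytes, and 0 to 1 for alveolar macrophages, patrolling monocytes and fibroblasts, and was 2 throughout for neutrophils. Over all genes, without CONV AsiDNA 400 of 16632 were called for type 1 dendritic cells and 1884 for mature dendritic cells. In that setting 908 were called for natural killer cells and 1456 for aerocytes. Between the alveolar macrophage groups 152 of 16779 genes were called without CONV, 8 of 16632 without CONV AsiDNA and 13 of 16816 without FLASH. For patrolling monocytes 1058 of 16793 were called without CONV. With each cell thinned to 1000 counts, the mean share of cells above 0 was 97.2% for Ccl6 in alveolar macrophages with Spp1 and Gpnmb, 51.3% for Ccl9 in interstitial macrophages, 43.0% for Cxcl12 in large vessel cells, and 53.1% for Ccl17, 73.9% for Ccl22 and 73.2% for Cxcl16 in mature dendritic cells. With clusters the mean Ccl17 level in mature dendritic cells was 5312 CPM. Monocyte comparisons could not be made with clusters, nor mature dendritic cells with 4 markers, nor fibroblasts and capillary cells without cells of mixed lineage.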
